A study of Homo sapiens with 12 samples.

Results

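Expression of 10 genes of the calcium pathway that ends in NFAT was followed in wild-type (WT) cells of the line MDA-MB-231 and in a CRE-deleted (ΔCRE) form of it. They are the factors NFATC1, NFATC2, NFATC3, NFATC4 and NFAT5, the calcineurin subunits PPP3CA, PPP3CB, PPP3CC and PPP3R1, and the calcineurin regulator RCAN1. They were chosen by name, and each matched 1 row of the 24331 features in the deposited table. The study asked how NFATc2 and the NF-κB subunits NFKB1 and RELA act on a core-regulatory element (CRE) in the ETS1 promoter. MDA-MB-231 is an established human line from a metastatic, hormone receptor negative breast cancer. In the ΔCRE cells (labelled KO), the NFAT and NF-κB sites of that element had been deleted with CRISPR/Cas9, and the number of clones behind the libraries is not stated. WT and ΔCRE cells were sampled at 0 h, unstimulated, and after 6 and 24 h of PMA (a phorbol ester that activates protein kinase C) with Ionomycin (a calcium ionophore). Each of the 6 conditions had 2 biological replicates, and 12 libraries were sequenced in all.

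Calcineurin is the phosphatase through which a rise in cytosolic calcium reaches the genome. Its catalytic subunit, encoded by PPP3CA, PPP3CB or PPP3CC, works with a calcium-binding regulatory subunit such as that of PPP3R1 and is switched on by calmodulin. Active calcineurin removes phosphates from NFATC1 to NFATC4, which then enter the nucleus and bind DNA, often beside AP-1. NFAT5 lacks the calcineurin docking region and is known as the factor of the response to osmotic stress. RCAN1 binds calcineurin and restrains it, and one of its promoters is itself a classic NFAT target. The pathway is best known from T cells, where it drives cytokine genes, and PMA with Ionomycin is the standard way to switch it on.

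Values are FPKM, in which fragments are divided by transcript length and by the mapped total, so sequencing depth is no longer visible in them. The library labelled ΔCRE 0 h replicate 1 stood apart: its FPKM summed to 1423335, against 566255 to 651080 in the other 11, and its r with replicate 2 was 0.867, against 0.978 to 0.984 between the replicates of the other 5 conditions. In that library 8 of 8 markers of gut epithelium were at 10 FPKM or more, with a sum of 2156 against 2.15 to 3.39 in the other 11, and CDH1, which MDA-MB-231 cells lack, was at 52.3 FPKM. It is therefore shown apart, and ΔCRE 0 h rests on replicate 2 in every test below unless stated. In the other 11 libraries the markers of this line, VIM, CD44, AXL and CAV1, summed to between 1814 and 3119 FPKM, whereas the immune cell markers PTPRC, CD3E, CD4 and LCK stayed under 1 FPKM. Bulk RNA cannot tell fewer cells of a kind from less RNA per cell. ETS1, the gene next to the deletion, was at 139.2 and 145.2 FPKM in WT and 62.8 and 62.2 FPKM in ΔCRE cells at 6 h.

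Shown is a stretch at the distance from the ETS1 start that the study gives for its deletion, where it places the NFAT factors. Neither guide sequence that the study prints for its deletion occurs in full in it, on either strand. Whether it is the stretch that was deleted was not tested, and it is labelled CRE below by that distance only. It spans −540 to −270 from the ETS1 start, here counted from a start shared by 2 annotated transcripts (the start the study counted from is not stated), at chr11:128392475-128392745 on the minus strand of GRCh37, the build named hg19 in the study. Capitals mark GGAAA, the core that NFAT proteins bind, on either strand (TTTCC when read on the other one).
ETS1 CRE stretch: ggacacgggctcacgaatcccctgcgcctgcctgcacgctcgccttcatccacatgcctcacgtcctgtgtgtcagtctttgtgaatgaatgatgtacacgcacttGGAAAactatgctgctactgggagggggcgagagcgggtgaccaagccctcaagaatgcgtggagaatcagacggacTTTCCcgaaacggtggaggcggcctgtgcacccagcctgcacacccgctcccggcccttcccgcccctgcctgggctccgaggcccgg
GGAAA occurred 2 times, at −434 on the strand of the gene and at −357 on the opposite strand. In 20150 stretches at the same distance from other protein-coding genes, 59.6% held GGAAA on either strand. The study's methods name TTTTAA as the NFAT site and TTGGAA as the NF-κB site that were mutated in reporters. TTGGAA was found 1 time, at −436, where it overlaps the first GGAAA (16.3% of the other stretches held it), and TTTTAA was not found in this stretch (25.6% held it). TGAGTCA, the AP-1 site, was not found either (3.45% held it). A match of letters is a description and does not show binding.

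Promoters of the members were read from RefSeq on GRCh38.p14, from 250 bases before to 50 after each start. The table held entries for NFATC1, NFATC2, NFATC3, NFATC4, PPP3R1 and RCAN1, and none for NFAT5, PPP3CA, PPP3CB and PPP3CC. GGAAA occurs in 61.2% of 35116 promoters of the table. Shown are the windows with the most GGAAA of NFATC2 and of RCAN1, the feedback inhibitor. NFATC2 was the tested member with the largest change in WT cells from 0 to 6 h. The windows lie at chr20:51562790-51563089 and chr21:34526773-34527072, both on the minus strand, with GGAAA in either direction in capitals.
NFATC2 promoter: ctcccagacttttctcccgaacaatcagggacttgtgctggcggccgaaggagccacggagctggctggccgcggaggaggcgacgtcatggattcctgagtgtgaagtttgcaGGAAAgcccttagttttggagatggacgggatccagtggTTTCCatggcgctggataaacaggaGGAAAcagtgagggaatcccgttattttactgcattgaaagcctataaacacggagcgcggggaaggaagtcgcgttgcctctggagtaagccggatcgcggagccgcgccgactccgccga
RCAN1 promoter: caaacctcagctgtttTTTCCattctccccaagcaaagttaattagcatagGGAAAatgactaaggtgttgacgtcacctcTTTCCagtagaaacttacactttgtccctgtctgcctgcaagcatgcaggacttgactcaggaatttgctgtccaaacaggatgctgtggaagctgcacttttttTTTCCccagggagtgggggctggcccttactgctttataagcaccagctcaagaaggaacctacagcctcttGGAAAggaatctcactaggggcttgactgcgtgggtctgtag
The NFATC2 window held 3 GGAAA, a number that 9.94% of all promoters reach, and the other NFATC2 window of the table held 0. The RCAN1 window held 5, which 0.74% of all promoters reach, together with 1 TTGGAA and 1 TGAGTCA. Among the other windows of the 6 genes, none held more than 1 GGAAA. These windows were picked by their number of matches, so the counts describe them only, and FPKM per gene does not say which start was used.

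In unstimulated WT cells the regulatory subunit PPP3R1 had the highest level of the 10 genes, at 30.3 and 37.01 FPKM in the libraries, followed by RCAN1 at 14.9 and 16.3 FPKM. PPP3CB (10.6 and 11.9 FPKM) and PPP3CA (10.2 and 11.99 FPKM) came next, and their libraries overlapped. NFATC3, at 6.89 and 7.47 FPKM, was the highest of the NFAT factors. PPP3CC (4.11 and 3.81 FPKM) and NFAT5 (3.18 and 4.21 FPKM) overlapped, NFATC2 was at 2.05 and 2.17 FPKM, NFATC1 at 1.91 and 1.95 FPKM, and NFATC4, at 0.274 and 0.313 FPKM, was the lowest. The order moved with stimulation: at WT 6 h NFATC2 was close below NFATC3, and at WT 24 h PPP3CB was level with RCAN1. NFATC4, with a mean of 0.357 FPKM over 11 libraries, did not reach the mean of 1 FPKM that a feature needed to be tested, so 9 of 10 members were tested among 11256 features.

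**Figure D1:**
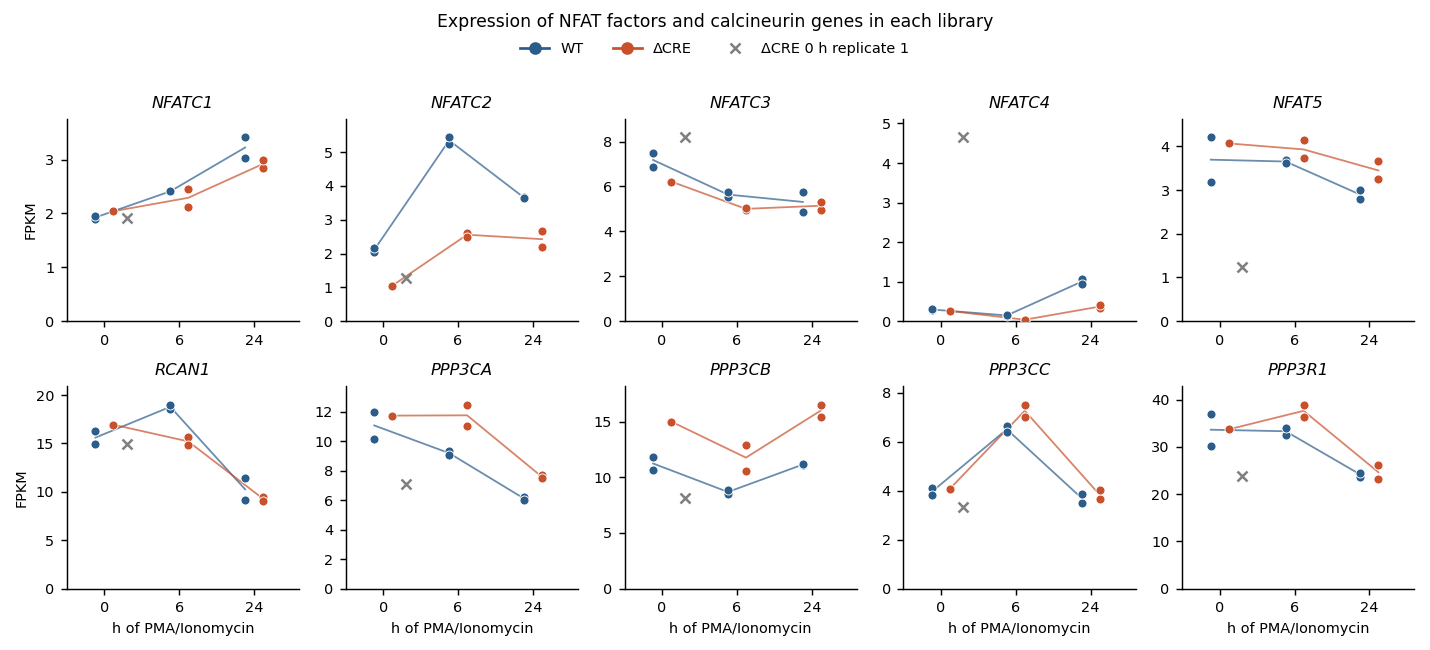
FPKM of each gene (vertical axis, from 0) at 0, 6 and 24 h, with 1 point per library, lines through the means, WT in blue, ΔCRE in orange and ΔCRE 0 h replicate 1 as a grey cross. Apart from the crosses, NFATC2 lay lower and PPP3CB higher in ΔCRE cells at every time point, and 5 genes of the library shown apart lay outside the range of the other 11, NFATC4 (4.65 FPKM) and NFATC3 (8.20 FPKM) above it and NFAT5 (1.23 FPKM), PPP3CB (8.10 FPKM) and PPP3CC (3.32 FPKM) below it.

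NFATC2, the factor the study places on the CRE, had the largest change of the tested members on stimulation and was lower in ΔCRE than in WT cells. In WT cells it was at 2.05 and 2.17 FPKM at 0 h, 5.25 and 5.45 FPKM at 6 h, and 3.67 and 3.64 FPKM at 24 h. In ΔCRE cells it was at 1.05 FPKM at 0 h, 2.61 and 2.50 FPKM at 6 h, and 2.19 and 2.66 FPKM at 24 h. The library shown apart had 1.29 FPKM, which lies below both WT 0 h libraries too. No ΔCRE library reached a WT library of the same time, and mean FPKM in ΔCRE cells was 49.7%, 47.8% and 66.4% of that in WT cells at 0, 6 and 24 h. The ΔCRE libraries of 6 h lay above the unstimulated WT libraries and below every stimulated WT library.

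Tested with limma on log2(FPKM + 1), a scale that understates the change of low genes, NFATC2 rose in WT cells from 0 to 6 h by a log2 fold change of 1.03 (standard error 0.0845, Benjamini-Hochberg adjusted p = 3.18e-05). It then fell by 0.45 from 6 to 24 h (adjusted p = 0.00298, limma, and 0.089 with all 12 libraries). It remained 0.58 above its 0 h level (adjusted p = 0.000568, limma). In ΔCRE cells it rose by 0.80 from 0 to 6 h (standard error 0.104, adjusted p = 0.000731, limma, 1 library at 0 h). Its change from 6 to 24 h in ΔCRE cells was −0.06 (adjusted p = 0.601, limma), and its libraries of these times overlapped. The rise from 0 to 6 h differed between genotypes by −0.23 (adjusted p = 0.699, limma), and the change from 6 to 24 h differed by 0.39 (unadjusted p = 0.0108, adjusted p = 0.514, limma), so neither difference in change passed the test. Both rises to 6 h were called in every alternative in which NFATC2 was tested.

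Compared with WT cells, NFATC2 in ΔCRE cells differed by −0.84 on the log2 scale at 6 h, to the lower side (standard error 0.0845, adjusted p = 0.000898, limma). This call was lost only in the fit of all 12 libraries, where the same difference had an adjusted p of 0.0639. The differences at 0 and 24 h were −0.60 and −0.45 (adjusted p 0.0307 and 0.0198, limma). These 2 calls were less stable: with all 12 libraries the adjusted p was 0.272 at 0 h and 0.697 at 24 h, and with separate fits of each time it was 0.228 and 0.106. At 0 h it was 0.0516 without the filter on low values. At 24 h the adjusted p was 0.124 without WT replicate 1, 0.0988 without WT replicate 2 and 0.107 without ΔCRE replicate 1. At 0 h it ranged from 0.0655 to 0.0946 when any 1 of the 6 WT libraries was left out. NFATC2 lies at chr20:50003493-50179370 (hg19), and the 23 other tested features in the same 10 Mb of chromosome 20 had median differences of 0.04, 0.08 and 0.12 at 0, 6 and 24 h, with none as far from 0 as NFATC2 at 0 and 6 h and 1 at 24 h.

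NFATC1, an NFAT factor that is itself induced in activated lymphocytes, was higher at 24 h than at 6 h in both genotypes. WT cells had 1.91 and 1.95 FPKM at 0 h, 2.41 and 2.41 FPKM at 6 h, and 3.42 and 3.03 FPKM at 24 h. ΔCRE cells had 2.04 FPKM at 0 h, 2.45 and 2.13 FPKM at 6 h, and 2.85 and 2.99 FPKM at 24 h, and the library shown apart had 1.91 FPKM. The levels of the genotypes overlapped at 6 h, and at 24 h both ΔCRE libraries lay just under the WT ones. From 0 to 6 h the change in WT cells was 0.22 (adjusted p = 0.0622, limma), which passed in 4 of 19 alternatives. In ΔCRE cells that change was 0.11, with 1 library at 0 h. The rise from 0 to 24 h in WT cells was 0.53 (standard error 0.0843, adjusted p = 0.000951, limma). From 6 to 24 h it rose by 0.31 in WT (adjusted p = 0.017, limma) and by 0.25 in ΔCRE cells (adjusted p = 0.0343, limma). The WT call did not hold without WT 6 h replicate 1, WT 6 h replicate 2 or WT 24 h replicate 1 (adjusted p 0.063, 0.0616 and 0.107), and the ΔCRE call did not hold without ΔCRE 6 h replicate 2, ΔCRE 24 h replicate 1 or ΔCRE 24 h replicate 2 (0.151, 0.0797 and 0.132). Quantile normalization gave 0.23 in WT (adjusted p = 0.0609) and 0.13 in ΔCRE cells (adjusted p = 0.255), and all 12 libraries gave an adjusted p of 0.224 and 0.296. The ΔCRE call was also lost in separate fits (0.0693) and without the filter on low values (0.0572).

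NFATC3, the most abundant NFAT factor at 0 h, fell on stimulation of WT cells. WT cells had 6.89 and 7.47 FPKM at 0 h, 5.53 and 5.75 FPKM at 6 h, and 4.88 and 5.74 FPKM at 24 h. ΔCRE cells had 6.22 FPKM at 0 h, 4.96 and 5.05 FPKM at 6 h, and 4.96 and 5.32 FPKM at 24 h. In WT cells it fell by 0.30 from 0 to 6 h (adjusted p = 0.0173, limma) and by 24 h it had changed by −0.38 (adjusted p = 0.00474, limma). With all 12 libraries both calls were lost (adjusted p 0.269 at 6 h and 0.126 at 24 h, limma). The 6 h call did not hold without WT 0 h replicate 2, WT 6 h replicate 1 or WT 6 h replicate 2 (adjusted p 0.0954, 0.0912 and 0.0552). In ΔCRE cells the change from 0 to 6 h was −0.27 (adjusted p = 0.078, limma). The genotypes differed by −0.18, −0.15 and −0.04 at 0, 6 and 24 h, with no call. The feature of NFATC3 also spans the protein-coding gene ESRP2 on the opposite strand, and the sources used here do not say whether strand was used in quantification. ESRP2 was between 1.41 and 2.80 FPKM in the 11 libraries. In ΔCRE 0 h replicate 1 NFATC3 was at 8.20 and ESRP2 at 6.67 FPKM, each above all other libraries.

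NFATC4 was the lowest of the 10 genes in each of the 11 libraries tested, and NFAT5 was not called in any comparison of the 11-library fit. NFATC4 was at 0.274 and 0.313 FPKM at WT 0 h, 0.141 and 0.144 FPKM at WT 6 h, and 1.07 and 0.927 FPKM at WT 24 h. In ΔCRE cells it was at 0.255 FPKM at 0 h, 0.0384 and 0.0317 FPKM at 6 h, and 0.332 and 0.403 FPKM at 24 h. In both genotypes its 24 h libraries lay above its 6 h libraries, and at 6 and 24 h the ΔCRE libraries lay below the WT ones, which at these levels is a description with no test. In ΔCRE 0 h replicate 1 it was at 4.65 FPKM. NFAT5 was at 3.18 and 4.21 FPKM at WT 0 h, 3.69 and 3.62 FPKM at WT 6 h, and 2.79 and 3.004 FPKM at WT 24 h. In ΔCRE cells it was at 4.07 FPKM at 0 h, 3.73 and 4.14 FPKM at 6 h, and 3.24 and 3.66 FPKM at 24 h. The change of NFAT5 from 0 to 24 h in WT cells was −0.26 (adjusted p = 0.075, limma), and its WT libraries of 0 and 6 h overlapped. That value rested on the 0 h libraries: it was −0.42 without WT 0 h replicate 1 (adjusted p = 0.0108, limma) and −0.10 without WT 0 h replicate 2 (adjusted p = 0.43, limma), and it also passed after quantile normalization (0.0296) and with the replicate block (0.0337). The change from 6 to 24 h in WT cells, −0.26 (adjusted p = 0.0882, limma), passed in 5 of 19 alternatives (smallest adjusted p 0.0293), among them those without WT 0 h replicate 1 or WT 0 h replicate 2.

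The make-up of the calcium-driven NFAT factors therefore shifted with time and genotype. Of the summed FPKM of NFATC1 to NFATC4, NFATC3 made up 62.4% at WT 0 h (mean of 2 libraries), 41.6% at 6 h and 40.2% at 24 h. NFATC2 made up 18.3% at WT 0 h (18.2 and 18.4% in the libraries), 39.5% at 6 h (39.4 and 39.6%) and 27.7% at 24 h (27.3 and 28.1%). In ΔCRE cells NFATC2 made up 10.96% at 0 h, 25.9% at 6 h (25.8 and 26.0%) and 22.3% at 24 h (21.2 and 23.4%). Its share was thus lower than in WT cells at every time, and no libraries overlapped. The sum over the 4 genes went from 11.5 FPKM at WT 0 h to 13.5 FPKM at WT 6 h, and from 9.56 to 9.89 FPKM in ΔCRE cells. These shares are of transcripts, were chosen after the values were seen and carry no test.

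**Figure D2:**
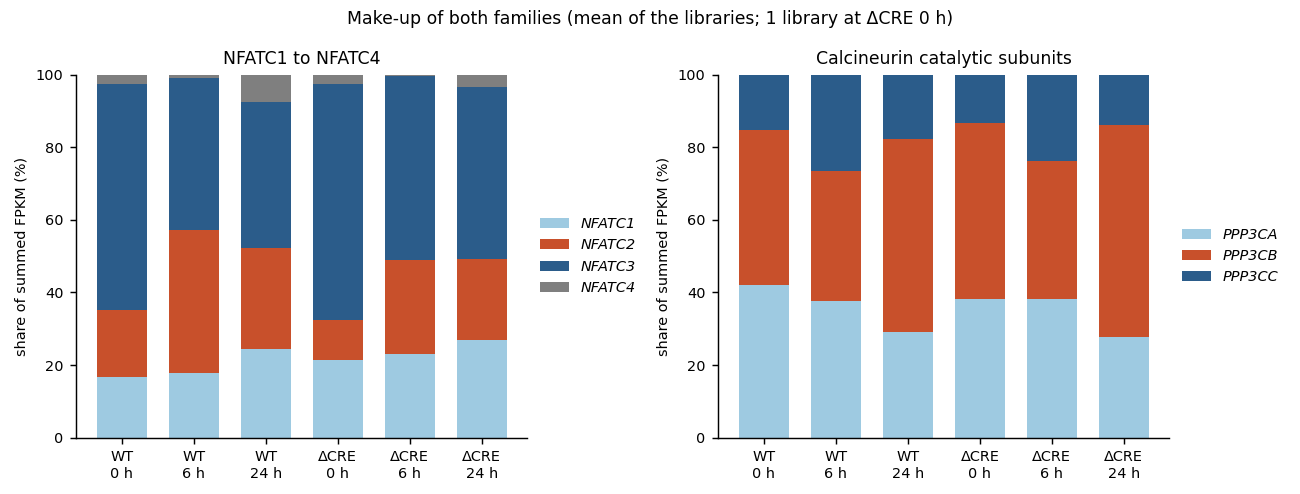
Share of summed FPKM (vertical axis, percent) of each NFATC gene and of each catalytic subunit of calcineurin, per condition, as stacked bars of the mean over libraries. NFATC2 grew from 18.3% to 39.5% in WT cells at 6 h and from 10.96% to 25.9% in ΔCRE cells, and PPP3CC grew from 15.1% to 26.7% in WT cells.

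Among the catalytic subunits of calcineurin, PPP3CC, best known as the testis-enriched form, had a clear transient rise. It was at 4.11 and 3.81 FPKM at WT 0 h, 6.63 and 6.38 FPKM at WT 6 h, and 3.51 and 3.88 FPKM at WT 24 h. ΔCRE cells had 4.08 FPKM at 0 h, 7.52 and 7.02 FPKM at 6 h, and 3.66 and 4.01 FPKM at 24 h, and the library shown apart had 3.32 FPKM. The 6 h libraries stood above all others in both genotypes. The rise from 0 to 6 h was 0.60 in WT cells (standard error 0.0768, adjusted p = 0.000391, limma) and 0.70 in ΔCRE cells (adjusted p = 0.000865, limma). The fall from 6 to 24 h was −0.68 in WT (adjusted p = 0.000232, limma) and −0.77 in ΔCRE cells (adjusted p = 9.97e-05, limma). These 4 calls held in every alternative tried in which PPP3CC was tested. The genotypes differed by 0.04, 0.14 and 0.04 at 0, 6 and 24 h, with no call.

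PPP3CB moved the other way at 6 h and was higher in ΔCRE cells. It was at 10.6 and 11.9 FPKM at WT 0 h, 8.52 and 8.83 FPKM at WT 6 h, and 11.1 and 11.2 FPKM at WT 24 h. ΔCRE cells had 15.0 FPKM at 0 h, 10.6 and 12.9 FPKM at 6 h, and 15.4 and 16.5 FPKM at 24 h, whereas the library shown apart had 8.10 FPKM. Apart from that library, every ΔCRE library lay above both WT libraries of its time. In WT cells PPP3CB fell by 0.34 from 0 to 6 h (adjusted p = 0.0179, limma) and rose by 0.33 from 6 to 24 h (adjusted p = 0.0192, limma). The fall did not hold without WT 0 h replicate 2, WT 6 h replicate 1 or WT 6 h replicate 2 (adjusted p 0.11, 0.0936 and 0.0593), nor the rise without any 1 of the 4 WT libraries of 6 and 24 h (between 0.064 and 0.0941), and both were lost without the filter on low values (0.0699 and 0.0718) and with all 12 libraries (0.533 and 0.543). In ΔCRE cells it rose by 0.42 from 6 to 24 h (adjusted p = 0.00586, limma), and the change from 0 to 6 h was −0.33 (adjusted p = 0.0567, limma), which passed after TPM (0.0379), with the replicate block (0.0377) and without ΔCRE 6 h replicate 2 (0.0159).

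PPP3CA, the catalytic form that is highest in brain, fell from 6 to 24 h in both genotypes. It was at 10.2 and 11.99 FPKM at WT 0 h, 9.32 and 9.07 FPKM at WT 6 h, and 6.22 and 6.00 FPKM at WT 24 h. ΔCRE cells had 11.7 FPKM at 0 h, 11.03 and 12.5 FPKM at 6 h, and 7.69 and 7.48 FPKM at 24 h, and the library shown apart had 7.12 FPKM. From 0 to 6 h the change in WT cells was −0.24 (adjusted p = 0.0511, limma), and the libraries did not overlap. It passed in 7 of 20 alternatives, among them TPM (−0.36, adjusted p = 0.0266, limma). In ΔCRE cells the change from 0 to 6 h was −0.000127. The fall from 6 to 24 h was −0.52 in WT (standard error 0.0863, adjusted p = 0.00154, limma) and −0.57 in ΔCRE cells (adjusted p = 0.00087, limma). Both calls were lost with all 12 libraries (adjusted p 0.192 in WT and 0.132 in ΔCRE cells, limma). At 6 and 24 h both ΔCRE libraries were above both WT libraries, with differences of 0.32 (adjusted p = 0.0531, limma) and 0.27 (adjusted p = 0.112, limma), which did not pass the test. The 6 h difference passed without WT 0 h replicate 1 or WT 0 h replicate 2 (adjusted p 0.0336 and 0.034).

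The make-up of the catalytic pool followed these changes. In WT cells PPP3CA made up 42.1% of the summed FPKM of PPP3CA, PPP3CB and PPP3CC at 0 h, 37.7% at 6 h and 29.2% at 24 h. PPP3CB made up 42.8%, 35.6% and 53.2% at the same times, and PPP3CC 15.1%, 26.7% and 17.6%. In ΔCRE cells PPP3CB made up 48.7%, 38.1% and 58.3%. The summed level of the 3 catalytic genes was 26.3 FPKM at WT 0 h and 20.9 FPKM at WT 24 h, and 30.8 and 27.4 FPKM at the same times in ΔCRE cells. The values of ΔCRE 0 h are of 1 library, and the library shown apart had a sum of 18.5 FPKM. These shares and sums are of transcripts and carry no test.

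PPP3R1, the regulatory subunit shared by all catalytic forms, stayed level to 6 h and fell by 24 h. It was at 30.3 and 37.01 FPKM at WT 0 h, 32.6 and 34.0 FPKM at WT 6 h, and 23.7 and 24.6 FPKM at WT 24 h. ΔCRE cells had 33.7 FPKM at 0 h, 36.3 and 39.0 FPKM at 6 h, and 23.1 and 26.1 FPKM at 24 h, and the library shown apart had 23.8 FPKM. The fall from 6 to 24 h was −0.45 in WT (adjusted p = 0.0055, limma) and −0.59 in ΔCRE cells (adjusted p = 0.00124, limma). The WT value missed the threshold after rescaling to TPM (adjusted p = 0.0567). Both calls were lost with all 12 libraries (adjusted p 0.196 in WT and 0.0804 in ΔCRE cells, limma). Its feature overlaps 1 further protein-coding gene in the annotation, so shared fragments may have been split between them.

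RCAN1, the inhibitor, was at 14.9 and 16.3 FPKM at WT 0 h, 18.5 and 19.0 FPKM at WT 6 h, and 11.4 and 9.10 FPKM at WT 24 h. ΔCRE cells had 16.9 FPKM at 0 h, 15.6 and 14.8 FPKM at 6 h, and 9.46 and 9.09 FPKM at 24 h, and the library shown apart had 15.0 FPKM. The WT libraries of 6 h lay above those of 0 h, and both ΔCRE libraries of 6 h lay below the ΔCRE 0 h library. Neither change passed the test, at 0.25 in WT (adjusted p = 0.0586, limma) and −0.15 in ΔCRE cells (adjusted p = 0.382, limma). The WT change passed without WT 24 h replicate 1 or WT 24 h replicate 2 (adjusted p 0.0201 and 0.0199), libraries that enter only the shared spread. These changes differed between genotypes by −0.40 (unadjusted p = 0.0272, adjusted p = 0.529, limma). From 6 to 24 h RCAN1 fell by 0.82 in WT (standard error 0.0949, adjusted p = 0.000255, limma) and fell by 0.66 in ΔCRE cells (adjusted p = 0.000688, limma), and both calls held in every alternative. At 6 h the difference between ΔCRE and WT cells was −0.29 (adjusted p = 0.103, limma), which passed without WT 24 h replicate 1 or WT 24 h replicate 2 (0.0472 and 0.0465). RCAN1 overlaps 1 further protein-coding gene on the same strand in the annotation.

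**Figure D3:**
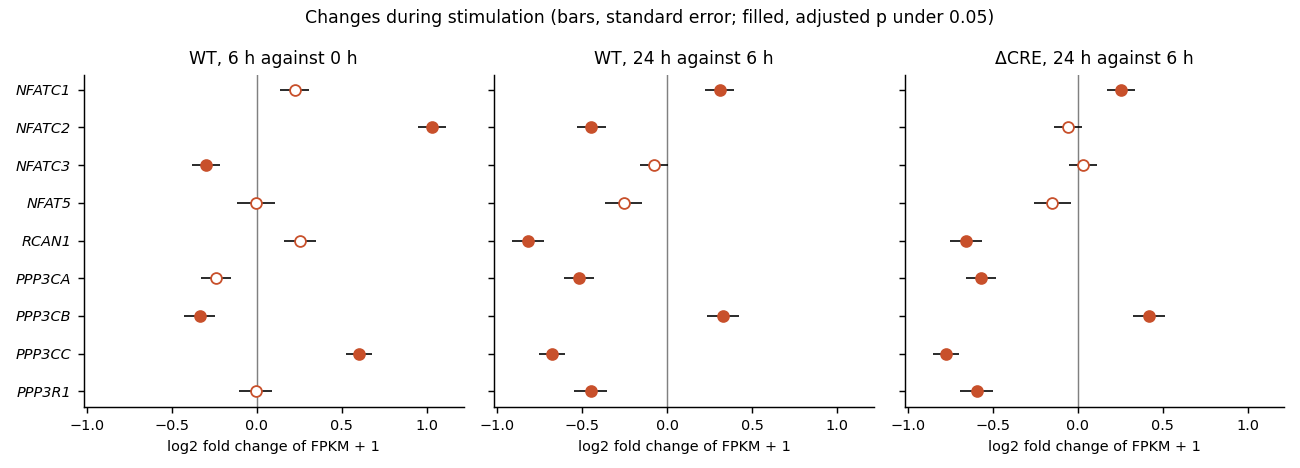
Log2 fold change of FPKM + 1 (horizontal axis) of the 9 tested genes in WT cells from 0 to 6 h and from 6 to 24 h and in ΔCRE cells from 6 to 24 h, with bars for the standard error and filled points for an adjusted p under 0.05 (limma). NFATC2 at 1.03 and PPP3CC at 0.60 stand out at 6 h, and from 6 to 24 h RCAN1, PPP3CC, PPP3CA and PPP3R1 lie below 0 in both genotypes.

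Stimulation moved a large part of the transcriptome, so the members' counts are read against all features. From 0 to 6 h in WT cells 4 of 9 tested members were called, NFATC2 and PPP3CC higher and PPP3CB and NFATC3 lower, against 44.4% of the 11256 features. From 0 to 24 h in WT cells 6 of 9 were called (NFATC1 and NFATC2 higher, NFATC3, RCAN1, PPP3CA and PPP3R1 lower), against 54.6% of features. From 6 to 24 h in WT cells 7 of 9 were called (2 higher and 5 lower), against 46.8%, with a median of −0.45 over the 9 and −0.04 over all features. From 6 to 24 h in ΔCRE cells 6 of 9 were called (2 higher and 4 lower), against 49.6%. From 0 to 6 h in ΔCRE cells 2 of 9 were called, both higher, against 29.8%. The share of members called from 0 to 6 h in WT cells was that of all features. With all 12 libraries in the fit, 2 members remained called from 6 to 24 h in either genotype, RCAN1 and PPP3CC, and the same fit kept NFATC2 and PPP3CC from 0 to 6 h in either genotype.

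Differences between genotypes were fewer. At 0 h 1 of 9 tested members was called (NFATC2), against 1.69% of features. At 6 h 2 of 9 were called (NFATC2 lower, PPP3CB higher), against 9.83%, and at 24 h the same 2 genes were called, against 6.33%. For the change from 0 to 6 h, 0 of 9 members differed between genotypes at an adjusted p under 0.05 in limma and 1 at an unadjusted p under 0.05, against 0.267% of features called. For the change from 6 to 24 h, 0 of 9 differed at an adjusted p under 0.05 in limma and 1 at an unadjusted p under 0.05, against 0.16% of features called. With 1 or 2 libraries per group these p-values measure the spread between the libraries of this cell line, and clone and deletion cannot be told apart.

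**Figure D4:**
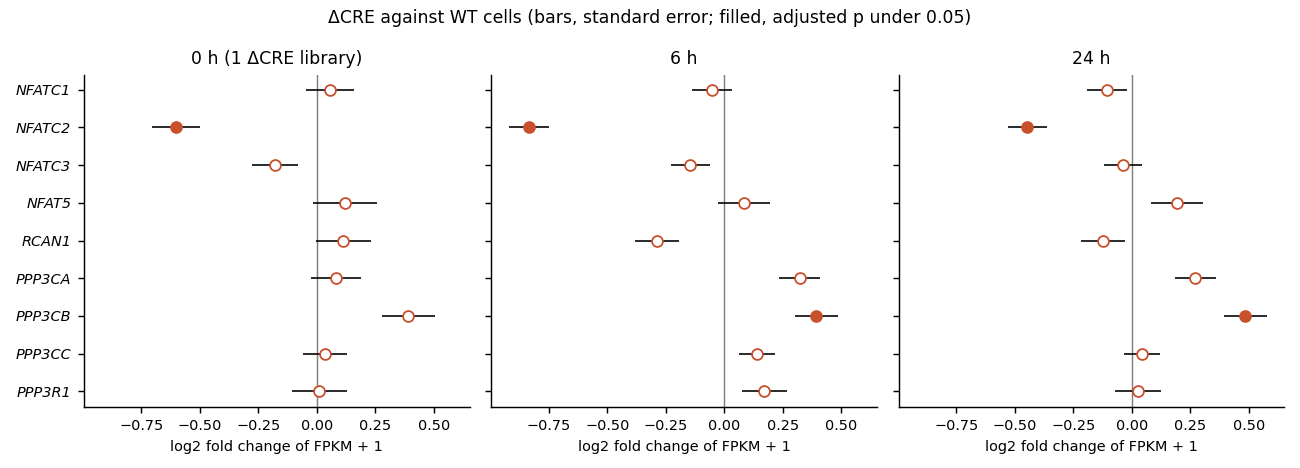
Log2 fold change of FPKM + 1 (horizontal axis) of ΔCRE against WT cells for the 9 tested genes at 0, 6 and 24 h, with bars for the standard error and filled points for an adjusted p under 0.05 (limma). NFATC2 lies at −0.60, −0.84 and −0.45, and PPP3CB at 0.39, 0.39 and 0.48.

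PPP3CB in ΔCRE cells was higher by 0.39 at 6 h (standard error 0.0924, adjusted p = 0.0328, limma) and by 0.48 at 24 h (adjusted p = 0.0203, limma). Its difference of 0.39 at 0 h did not pass the test (adjusted p = 0.152, limma). Most of its neighbours on the chromosome lay on the same side of 0. PPP3CB lies at chr10:75196562-75255782 (hg19), and the 62 other tested features between 70 and 80 Mb of chromosome 10 had median differences of 0.35, 0.36 and 0.38 at 0, 6 and 24 h. At 6 h 57 of the 62 had a value above 0, 38 were called higher and 2 lower, and 27 lay as far from 0 as PPP3CB. The part of this stretch in the difference was not tested. PPP3CB is also overlapped by the antisense gene PPP3CB-AS1. With all 12 libraries the 6 and 24 h differences were not called (adjusted p = 1.0 for each, limma), nor without a filter on low values (0.122 and 0.0846), after TPM (0.0838 and 0.0562) or in separate fits (0.132 and 0.0609). At 6 h the call was lost without WT 6 h replicate 1, WT 6 h replicate 2, WT 24 h replicate 1, WT 24 h replicate 2, ΔCRE 6 h replicate 2, ΔCRE 24 h replicate 1 or ΔCRE 24 h replicate 2 (adjusted p between 0.0517 and 0.182). At 24 h it was lost without any 1 of the 4 libraries of that time (between 0.0723 and 0.14).

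**Figure D5:**
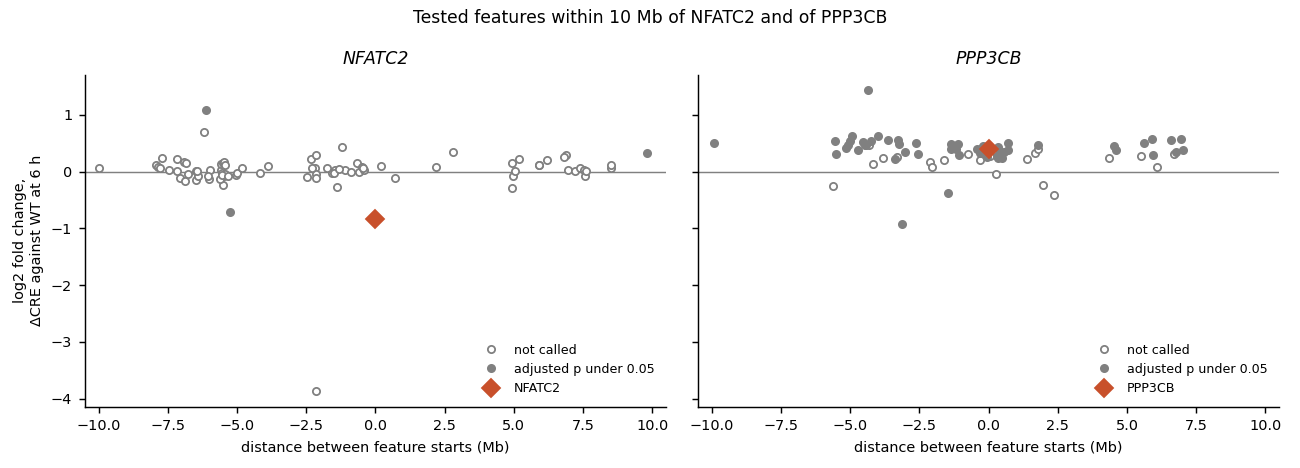
Log2 fold change of ΔCRE against WT cells at 6 h (vertical axis) of the tested features within 10 Mb of NFATC2 (85 others) and of PPP3CB (76 others), against the distance between feature starts in Mb, filled where the adjusted p was under 0.05. NFATC2 (diamond) lies under all but 1 of its neighbours (SNORD12, a small nucleolar RNA at −3.88, not called), of which 2 were called higher and 1 lower, and PPP3CB lies among its neighbours, of which 48 were called higher and 2 lower.

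Over the 11 libraries the features whose log2(FPKM + 1) ran most like that of NFATC2 were DDX58 (r = 0.985), NOTCH1 (0.975), RFTN1 (0.971), MGLL (0.969) and COL27A1 (0.961). DDX58 encodes the RNA sensor RIG-I, and NOTCH1 is a cell surface receptor. RFTN1, a raft protein, was at 14.2 and 13.4 FPKM at WT 0 h, 30.6 and 31.5 FPKM at WT 6 h, and 19.9 and 19.4 FPKM at ΔCRE 6 h. These libraries come from 6 conditions, so r mostly follows the order of the condition means, and it is given as a description.

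Genes around the pathway were read from lists. Of 11 regulators of calcineurin and immunophilins 8 were tested, and 1 rose in WT cells from 0 to 6 h and none fell (44.4% of all features were called). That gene was FKBP1A, the target of FK506, at 287 and 276 FPKM at WT 0 h and 339 and 345 FPKM at WT 6 h (log2 fold change 0.28). Its feature names 2 genes, so these values are not of FKBP1A alone, and pseudogene copies make its level uncertain. Between genotypes 0 of the 8 were called at 0, 6 and 24 h.

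Kinases that rephosphorylate NFAT, with Homer scaffolds that compete with calcineurin for it, included 13 tested genes of 15. In WT cells from 0 to 6 h 6 rose and none fell, a share of the 13 near the 44.4% of all features called, with a median of 0.27 against 0.00 over all features. HOMER3 went from 14.1 and 9.36 FPKM to 18.8 and 18.6 FPKM (0.65), and the casein kinase gene CSNK1E from 45.4 and 42.0 FPKM to 70.5 and 66.1 FPKM (0.63). HOMER2 (0.41) and CSNK1D (0.38) rose as well. Between genotypes 1 of the 13 was called at 24 h, the kinase gene DYRK1B (4.75 and 4.47 FPKM in ΔCRE against 7.19 and 6.30 FPKM in WT cells, named after its values were seen, 6.33% of all features called), and 0 at 0 and 6 h.

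Of 10 genes of calcium release and entry upstream of calcineurin, 10 were tested, and in WT cells from 0 to 6 h 3 rose and 2 fell, a share near the 44.4% of all features called. The inositol trisphosphate receptors moved apart: ITPR3 went from 19.4 and 19.6 FPKM to 34.8 and 34.0 FPKM (0.78), and ITPR1 from 3.50 and 3.17 FPKM to 2.18 and 1.89 FPKM (−0.52). ORAI2, a subunit of the store-operated channel, rose by 0.44, and the phospholipase gene PLCG2 fell by 0.42. At 6 h 3 of the 10 differed between genotypes, against 9.83% of all features: ORAI2 was lower in ΔCRE cells (5.37 and 4.50 against 7.19 and 7.16 FPKM), ORAI1, the main subunit of that channel, was lower (22.9 and 22.6 against 28.3 and 27.9 FPKM), and PLCG2 was higher (1.45 and 1.34 against 0.752 and 0.791 FPKM). ORAI1 is named to complete the 3, after its values were seen.

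Of 21 textbook target genes of NFAT, 20 were in the table (CXCL8 was not found under that symbol) and 5 passed the filter. The T cell cytokine genes IL2, IL3, IL4, IL5, IL13 and IFNG were listed at 0 in all 12 libraries. In WT cells 4 of the 5 rose by 6 h and none fell: CSF2 from 1.61 and 2.18 FPKM to 540 and 522 FPKM (7.53), PTGS2 from 0.476 and 0.608 FPKM to 36.7 and 37.3 FPKM (4.62), IL6 from 0.740 and 0.774 FPKM to 15.2 and 16.5 FPKM (3.26) and NR4A1 from 0.875 and 0.457 FPKM to 4.18 and 4.05 FPKM (1.63). A gene low at 0 h passed the filter only through its stimulated level, so this count has no weight of its own. At 6 h 0 of the 5 differed between genotypes at an adjusted p under 0.05 (limma), against 9.83% of all features. With 5 genes tested, 0 calls are near that share. CSF2 was at 527 and 529 FPKM in ΔCRE cells. Of the genes under the filter, TNF (the highest of its 8 features) was at 0.262 and 0.373 FPKM in ΔCRE against 1.07 and 0.614 FPKM in WT cells. EGR2 was at 0.307 and 0.249 against 0.137 and 0.107 FPKM. TNF and EGR2 are named after their values were seen and carry no test. At 0 h 1 of the 5 was called, NR4A1, at 1.77 FPKM in the 1 ΔCRE library tested (0.74 on the log2 scale, adjusted p = 0.0432, limma, against 1.69% of all features called). At 24 h PTGS2 was higher in ΔCRE cells (150.0 and 156.6 against 89.6 and 95.0 FPKM) and IL6 was lower (5.22 and 4.48 against 9.79 and 7.87 FPKM), 2 of the 5 against 6.33% of all features.

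Of 7 osmotic stress targets of NFAT5, 6 were tested, and in WT cells from 0 to 6 h 3 rose and 2 fell, against 44.4% of all features called, while NFAT5 itself did not pass the test. AKR1B1, which makes the osmolyte sorbitol, rose by 0.61, and the taurine transporter gene SLC6A6, named to complete the 3, by 0.27. The heat shock gene HSPA1B rose by 1.15. That value is from the highest of its 5 features, and its near-identical copy makes it uncertain. HSPA4L fell by 0.51 and S100A4 fell by 0.40. Less S100A4 was seen in ΔCRE cells at 6 h (15.5 and 20.1 against 28.0 and 33.0 FPKM), and it was at 4717 FPKM in ΔCRE 0 h replicate 1. Of the partners placed on the CRE, NFKB1 rose in WT cells from 12.5 and 11.9 FPKM to 41.9 and 43.0 FPKM at 6 h and was at 42.7 and 42.2 FPKM in ΔCRE cells. RELA was at 54.4 and 51.0 FPKM in WT and 50.6 and 49.5 FPKM in ΔCRE cells at 6 h. HPRT1, the reference gene of the study, lay between 41.9 and 67.1 FPKM in the 12 libraries. In WT cells it went from 61.3 and 67.1 FPKM at 0 h to 52.7 and 57.0 FPKM at 6 h. At 24 h it was at 41.9 and 47.6 FPKM in WT and 43.1 and 52.7 FPKM in ΔCRE cells.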

How the data were processed

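RNA of 12 libraries, 2 for each genotype and time point, was measured by sequencing of stranded mRNA libraries. The authors aligned the sequences with TopHat 2.0.12 (hg19), quantified genes with Cufflinks 2.2.1 and deposited the resulting FPKM values, 1 column per library. The submitters' processing notes also name FastQC, cutadapt and Bowtie. The annotation, the scaling between libraries and the use of strand are not given in the sources used here. The names of 2 columns have a digit where a label has a letter and were matched to the label left. Depth is unknown, so counting error was not estimated.

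The deposited FPKM were put on a log2 scale, as log2(FPKM + 1), and tested with limma 3.58.1 in R 4.3.3 (eBayes with trend, two-sided) in 1 model of 6 groups over 11 libraries. ΔCRE 0 h replicate 1 was left out, and the 1 remaining ΔCRE 0 h library was assumed to vary like the others. The test covered 11256 of 24331 features, those averaging 1 FPKM or more, p-values were adjusted over all of them (Benjamini-Hochberg), and called means an adjusted p under 0.05. The script was tested on simulated data. Members and lists were chosen with earlier results of these data known. One marker of a list is not reported here. All members are named, and at most 4 called genes per list, those with the largest change in WT cells from 0 to 6 h first; the 5 features most like NFATC2 follow Pearson's r. Alternatives were all 12 libraries, unfiltered features or those averaging 5 FPKM or more, a pseudocount of 0.1, TPM, quantile normalization, separate fits, eBayes without trend, blocking on the replicate number and leaving out each library. Promoters and motifs were read from RefSeq (GRCh38.p14) and the GRCh37 genome with GENCODE, using Python 3.11.15.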

Additional observations from a re-analysis of the deposited data

Results flagged for a closer look

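NFATC3 was at 8.20 FPKM and NFATC4 at 4.65 FPKM in ΔCRE 0 h replicate 1, a library outside the comparisons, each above its level in the other 11 libraries. In the same library the sum of 8 gut epithelium markers was 2156 FPKM, and the part of that in these values was not tested. The change of ETS1 from 0 to 6 h was lower in ΔCRE than in WT cells by −0.67 on the log2 scale, with 1 ΔCRE library at 0 h. That library had 16.5 FPKM of ETS1, and ΔCRE 0 h replicate 1 had 5.08 FPKM. The change from 6 to 24 h was higher by 0.84 (adjusted p under 0.05 for the difference, limma). With all 12 libraries 0 features were called lower for the first difference, and 0 were called in either direction for the second. No condition had 4 or more libraries, so single libraries were not screened for distance from their group.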

How the results depend on the processing

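Members called were recounted under each alternative. With all 12 libraries the counts were 2 in WT cells from 0 to 6 h (4 in the fit reported), 2 from 6 to 24 h (7), 2 in ΔCRE cells from 6 to 24 h (6), and 0 between genotypes at 0, 6 and 24 h (1, 2 and 2). A mean FPKM of at least 5, which takes NFATC2 and other members out of the test, gave 2 in WT cells from 0 to 6 h, 4 from 6 to 24 h, 0 in ΔCRE cells from 0 to 6 h (2), and 0 and 1 between genotypes at 0 and 24 h. TPM gave 4 in ΔCRE cells from 0 to 6 h and 1 between genotypes at 6 and at 24 h. No filter gave 0 at 0 h and 1 at 6 h, and separate fits gave 0, 1 and 0 between genotypes at 0, 6 and 24 h. Leaving out 1 library gave 2 to 6 in WT cells from 0 to 6 h, 6 to 7 from 0 to 24 h and 5 to 8 from 6 to 24 h, 5 to 6 in ΔCRE cells from 6 to 24 h and 2 to 3 from 0 to 6 h, and 0 to 1, 1 to 3 and 0 to 2 between genotypes at 0, 6 and 24 h. Of 1733 values of single members under an alternative, 1631 kept their side of the threshold, 70 lost a call, 32 gained one and none reversed, and 54 without a call in either fit changed sign. Apart from members taken out of the test, the cause of these changes was not tested.

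Counts over all features moved as well. In the order of WT 0 to 6, 0 to 24 and 6 to 24 h, ΔCRE 6 to 24 and 0 to 6 h, and genotypes at 0, 6 and 24 h, the fit reported called 4993, 6151, 5267, 5586, 3359, 190, 1107 and 712 features, and that of all 12 libraries 857, 1221, 582, 845, 1011, 17, 20 and 17. For the differences in change from 0 to 6 and 6 to 24 h, 30 and 18 were called, 4 and 0 with all 12 libraries, 174 and 90 without a filter, and from 6 to 24 h 9 in separate fits, 11 after quantile normalization and 8 without trend. Between genotypes at 0, 6 and 24 h, separate fits called 43, 364 and 132, and no filter called 309 and 707 at 0 and 6 h; separate fits called 1320 in ΔCRE cells from 0 to 6 h. Leaving out 1 library called 106 to 156, 325 to 1108 and 165 to 710 between genotypes. TPM moved the share of higher calls from 52.5% to 35.0% in WT cells from 0 to 6 h, 43.7% to 64.3% from 6 to 24 h, 44.6% to 60.7% and 56.4% to 31.8% in ΔCRE cells from 6 to 24 h and 0 to 6 h, and 37.2% to 24.7% between genotypes at 24 h.

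Over 10 pairs of groups the correlation of same-numbered deviations was between −0.0676 and 0.202, with 2 above 0.1. Blocking on the replicate number nevertheless raised the number of features called in every comparison. Whether replicate numbers paired the libraries was not tested. With the replicate number as a block, 5 members (4 without it) were called in WT cells from 0 to 6 h, 7 (6) from 0 to 24 h, 8 (7) from 6 to 24 h, 3 (2) in ΔCRE cells from 0 to 6 h and 3 (2) between genotypes at 6 h, with the other counts as reported, and 655, 1805 and 1407 features differed between genotypes at 0, 6 and 24 h and 72 in the change from 0 to 6 h.

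Depth is unknown, so low genes such as NFATC4 carry no interval. TPM moved the median of all features to −0.12 in WT and −0.13 in ΔCRE cells from 0 to 6 h.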
